A study of Mus musculus with 11 samples.

Results

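The 48 genes described here encode the machinery with which a cell divides its chromosomes: the cyclins and kinases that start mitosis, the spindle checkpoint, the kinetochore, the kinesin motors of the spindle and the proteins of the cleavage furrow. They were listed by name, with earlier results of these data known, and each matched 1 row of a count table of 54232 mouse genes. All 48 passed the filter on low counts, which left 20331 genes for testing. The members lie on 16 chromosomes. Reads were counted in whole ovaries of wild-type mice by bulk RNA sequencing at 3 ages, which the study calls reproductively young, reproductively old and post-reproductive. The sample titles give 4 replicates at 2 months, 4 at 18 months and 3 at 24 months, while the library names carry 8 weeks and 22 months for the youngest and the oldest group. No treatment or transgene is given for any group, and the labels do not say whether replicates came from separate animals, so that p-values speak for the spread among these samples alone, which may be technical.

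A dividing cell builds a bipolar spindle of microtubules, to which each chromosome attaches through its kinetochore. The spindle checkpoint holds back the anaphase promoting complex, a ubiquitin ligase, until every kinetochore is attached, after which the chromosomes separate and a contractile furrow splits the cell. In the ovary the granulosa cells of growing follicles are known as the main dividing cells, and oocytes store transcripts of several of these genes for their meiotic divisions. Most of the genes are transcribed late in the cell cycle. In cultured cells the DREAM complex is known to silence many of them at rest through a promoter element called the cell cycle genes homology region (CHR), and NF-Y binds CCAAT boxes close to it.

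Total counts lay between 26061630 and 33407509 per library, except for 5231724 in 18 month replicate 3 and 8892915 in 18 month replicate 4. The counts of these 2 libraries differed by about counting noise, with a chi-square of 1.102 per gene against 28.74 to 126.9 for the other pairs of one age, so they were summed and counted as 1 sample. All values therefore rest on 4, 3 and 3 samples. Levels are given in counts per total reads of the library, scaled by TMM (CPM), always in the order of replicates 1 to 4 at 2 months, replicate 1, replicate 2 and the sum of replicates 3 and 4 at 18 months, and replicates 1 to 3 at 24 months. Each of the 12 granulosa cell and 13 oocyte markers found in the table had counts in at least 1 sample of every age. Some levels were near 0, such as Figla at 0.0746, 0.0285 and 0 CPM at 24 months.

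Promoter windows from RefSeq (build GRCm38.p6), 250 bases before to 50 bases after an annotated start, were found for 41 of the 48 members, with 44 windows in all. Cdc25c, Ccna2, Tpx2, Aurkb, Incenp, Kif20a and Foxm1 were not matched. The CHR was searched as TTTGAA or TTCGAA and the CCAAT box as CCAAT, on both strands, so that TTCAAA and ATTGG are the same elements read on the other strand. No CHR match shared a base with a CCAAT match in these windows. A CHR was found in 35 of 44 member windows (79.5%), against 6316 of 32851 windows of all genes (19.2%). A CCAAT box was found in 31 member windows (70.5%) against 37.4% of all windows. Both elements were present in 29 member windows (65.9%) against 7.52% of all windows, and at least 2 CCAAT boxes in 22 (50%) against 11.7%. The median GC content was 58.7% in member windows and 52.7% in all windows. With only 150 bases before the start, a CHR was present in 75.0% of member windows against 12.0% of all windows, and a CCAAT box in 68.2% against 28.6%.

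The elements differed in place. Of the 48 CHR matches, 23 lay within the first 50 bases after the start. Of the 70 CCAAT matches, 35 lay 150 to 51 bases before it and 1 lay after it. Matches were counted per window, so sites in the overlapping windows of Ect2, Bub3 and Prc1 counted more than once. The 1 CCAAT match after the start, at position 2 in an Ect2 window, is the site at -23 in the other Ect2 window. Among the 7 lists of other pathway genes described further on, a CHR was present in 3 of 18 windows of the anaphase promoting complex list (16.7%). It was found in 2 of 7 of centriole duplication (28.6%), 4 of 12 of DREAM and MuvB (33.3%) and 10 of 27 of other centromere and kinetochore genes (37%). It was present in 9 of 21 windows of other spindle and cytokinesis genes (42.9%), 7 of 11 of other checkpoint, passenger and separase genes (63.6%) and 6 of 8 of condensin (75%). A match is a stretch of letters and not a measured binding site, and these windows say nothing of which factor bound in these ovaries.

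**Figure D1:**
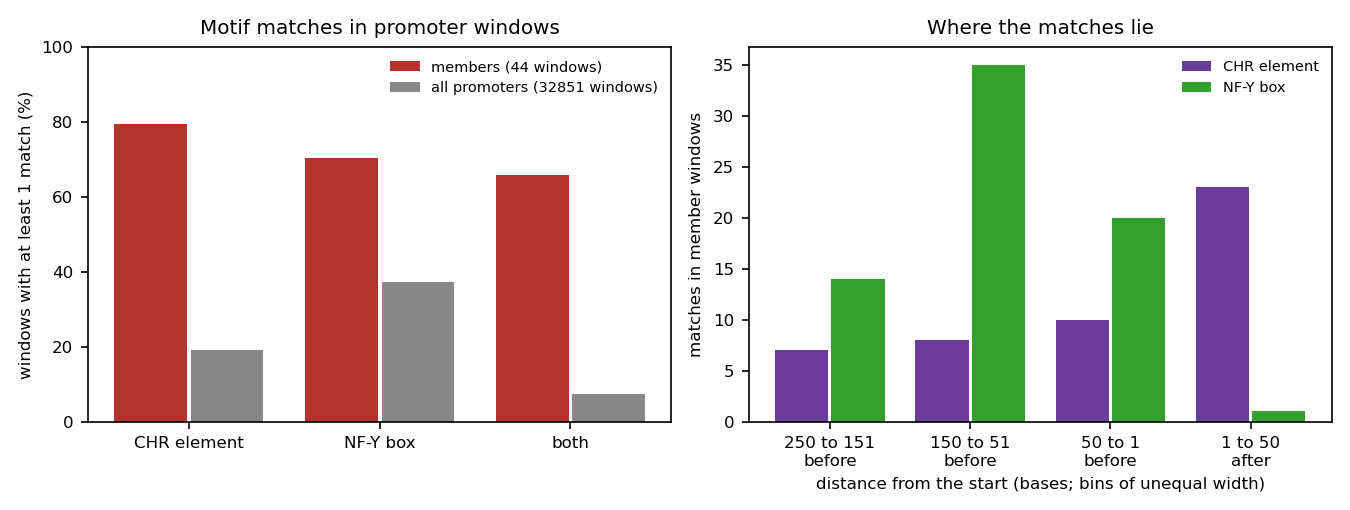
Left, percent of promoter windows with at least 1 CHR, at least 1 CCAAT box (labelled NF-Y box) or both, for members (red) and all windows (grey). Right, number of matches in member windows by distance from the annotated start in bases, in bins of unequal width. A CHR was present in 79.5% of the 44 member windows and 19.2% of all 32851 windows, and 23 of 48 CHR matches lay just after the start.

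The windows below show these elements in capitals, read 5′ to 3′ in the direction of transcription. Kif14, Aspm, Cenpe and Ect2 had the smallest adjusted p at 18 months in the roles shown, and Bub3 and Cenpf are the members that edgeR did not call at 18 months. The window of Kif14, chr1:136467598-136467897 on the plus strand, held 1 CHR and 1 CCAAT box. Its RefSeq start differs from the start of the gene in the count table. That of Aspm, chr1:139454523-139454822 on the plus strand, held 1 CHR and 3 CCAAT boxes. For Cenpe, chr3:135212313-135212612 on the plus strand, no CHR and 1 CCAAT box were found. The Ect2 window, chr3:27153829-27154128 on the minus strand, held 2 CHRs and 3 CCAAT boxes. Bub3, chr7:131560120-131560419 on the plus strand, and Cenpf, chr1:189688037-189688336 on the minus strand, each held 1 CHR and 2 CCAAT boxes. Ect2 and Bub3 had a second, overlapping window, which is not printed.
Kif14: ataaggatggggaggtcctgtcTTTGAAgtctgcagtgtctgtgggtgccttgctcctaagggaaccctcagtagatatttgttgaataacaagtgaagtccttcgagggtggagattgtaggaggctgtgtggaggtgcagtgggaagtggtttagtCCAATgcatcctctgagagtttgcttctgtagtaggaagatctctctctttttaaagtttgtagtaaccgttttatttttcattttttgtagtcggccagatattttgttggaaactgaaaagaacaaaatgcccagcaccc
Aspm: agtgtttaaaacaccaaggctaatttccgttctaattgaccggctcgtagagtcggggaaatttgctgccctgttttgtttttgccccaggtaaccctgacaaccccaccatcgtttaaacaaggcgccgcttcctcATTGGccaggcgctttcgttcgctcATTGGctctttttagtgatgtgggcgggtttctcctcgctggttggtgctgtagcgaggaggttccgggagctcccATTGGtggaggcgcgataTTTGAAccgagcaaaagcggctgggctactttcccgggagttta
Cenpe: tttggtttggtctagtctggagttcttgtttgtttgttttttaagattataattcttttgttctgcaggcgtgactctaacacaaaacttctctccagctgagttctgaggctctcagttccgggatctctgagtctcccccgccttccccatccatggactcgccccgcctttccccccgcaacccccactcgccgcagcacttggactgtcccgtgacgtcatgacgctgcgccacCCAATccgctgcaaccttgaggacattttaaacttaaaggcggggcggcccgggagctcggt
Ect2: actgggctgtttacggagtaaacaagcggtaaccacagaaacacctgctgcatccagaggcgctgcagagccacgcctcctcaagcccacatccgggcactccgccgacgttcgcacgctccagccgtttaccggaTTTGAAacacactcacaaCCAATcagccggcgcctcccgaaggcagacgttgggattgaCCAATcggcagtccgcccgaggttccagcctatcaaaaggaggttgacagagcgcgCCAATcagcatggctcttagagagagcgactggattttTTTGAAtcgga
Bub3: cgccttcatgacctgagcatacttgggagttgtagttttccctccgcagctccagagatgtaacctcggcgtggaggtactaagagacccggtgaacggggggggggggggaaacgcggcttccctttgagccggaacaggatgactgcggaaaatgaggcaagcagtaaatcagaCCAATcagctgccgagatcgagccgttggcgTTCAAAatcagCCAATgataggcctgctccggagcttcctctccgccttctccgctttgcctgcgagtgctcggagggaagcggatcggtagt
Cenpf: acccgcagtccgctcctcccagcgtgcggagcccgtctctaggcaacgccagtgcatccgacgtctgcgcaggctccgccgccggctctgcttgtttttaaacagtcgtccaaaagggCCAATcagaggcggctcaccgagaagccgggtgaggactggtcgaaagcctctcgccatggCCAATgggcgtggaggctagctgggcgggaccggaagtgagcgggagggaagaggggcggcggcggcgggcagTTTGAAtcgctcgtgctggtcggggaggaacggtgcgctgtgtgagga
Bub3 and Cenpf, the 2 members with the smallest change at 18 months, carry both kinds of element. So does Kif14, which had the smallest adjusted p. Over the 32 members with a CHR, the median log2 fold change at 18 months was -1.72 with a range of -2.23 to -0.45. Over the 9 without one it was -1.64 with a range of -2.05 to -1.02, and the difference was not tested.

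The first comparison asked how the division genes stood in old against young ovaries. Of the 48 members, 46 were lower at 18 than at 2 months and 0 were higher at an adjusted p of 0.05 (edgeR quasi-likelihood test, Benjamini-Hochberg over all genes tested), against 5.51% of all genes called lower, 6.04% called higher and 11.6% called in either direction. The median log2 fold change of the members was -1.66, against 0.01 for all genes, with a range of -2.23 for Ttk to -0.45 for Bub3. In linear terms the mean at 18 months was 21.2% to 73.3% of that at 2 months, with a median of 31.6%. In 47 of the 48 members every 18 month sample lay below every 2 month sample, which held for 13.7% of all genes. Cenpf was the exception. Whether Bub3 and Cenpf passed depended on the tool. DESeq2 called 47 members, Bub3 among them, and 19.9% of all genes, and limma-voom called all 48 members and 16.3% of all genes. With the replicate block edgeR also called Bub3, among 40 members and 5.09% of all genes.

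Summed over the 48 members, the level was 2032, 2025, 1205 and 1748 CPM at 2 months, 694.4, 525.4 and 589.6 CPM at 18 months, and 655.0, 473.8 and 337.6 CPM at 24 months. The 2 month samples stood clear of all older samples, while the 18 and 24 month samples overlapped. In whole tissue, fewer dividing cells and less of these RNAs per cell cannot be told apart.

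**Figure D2:**
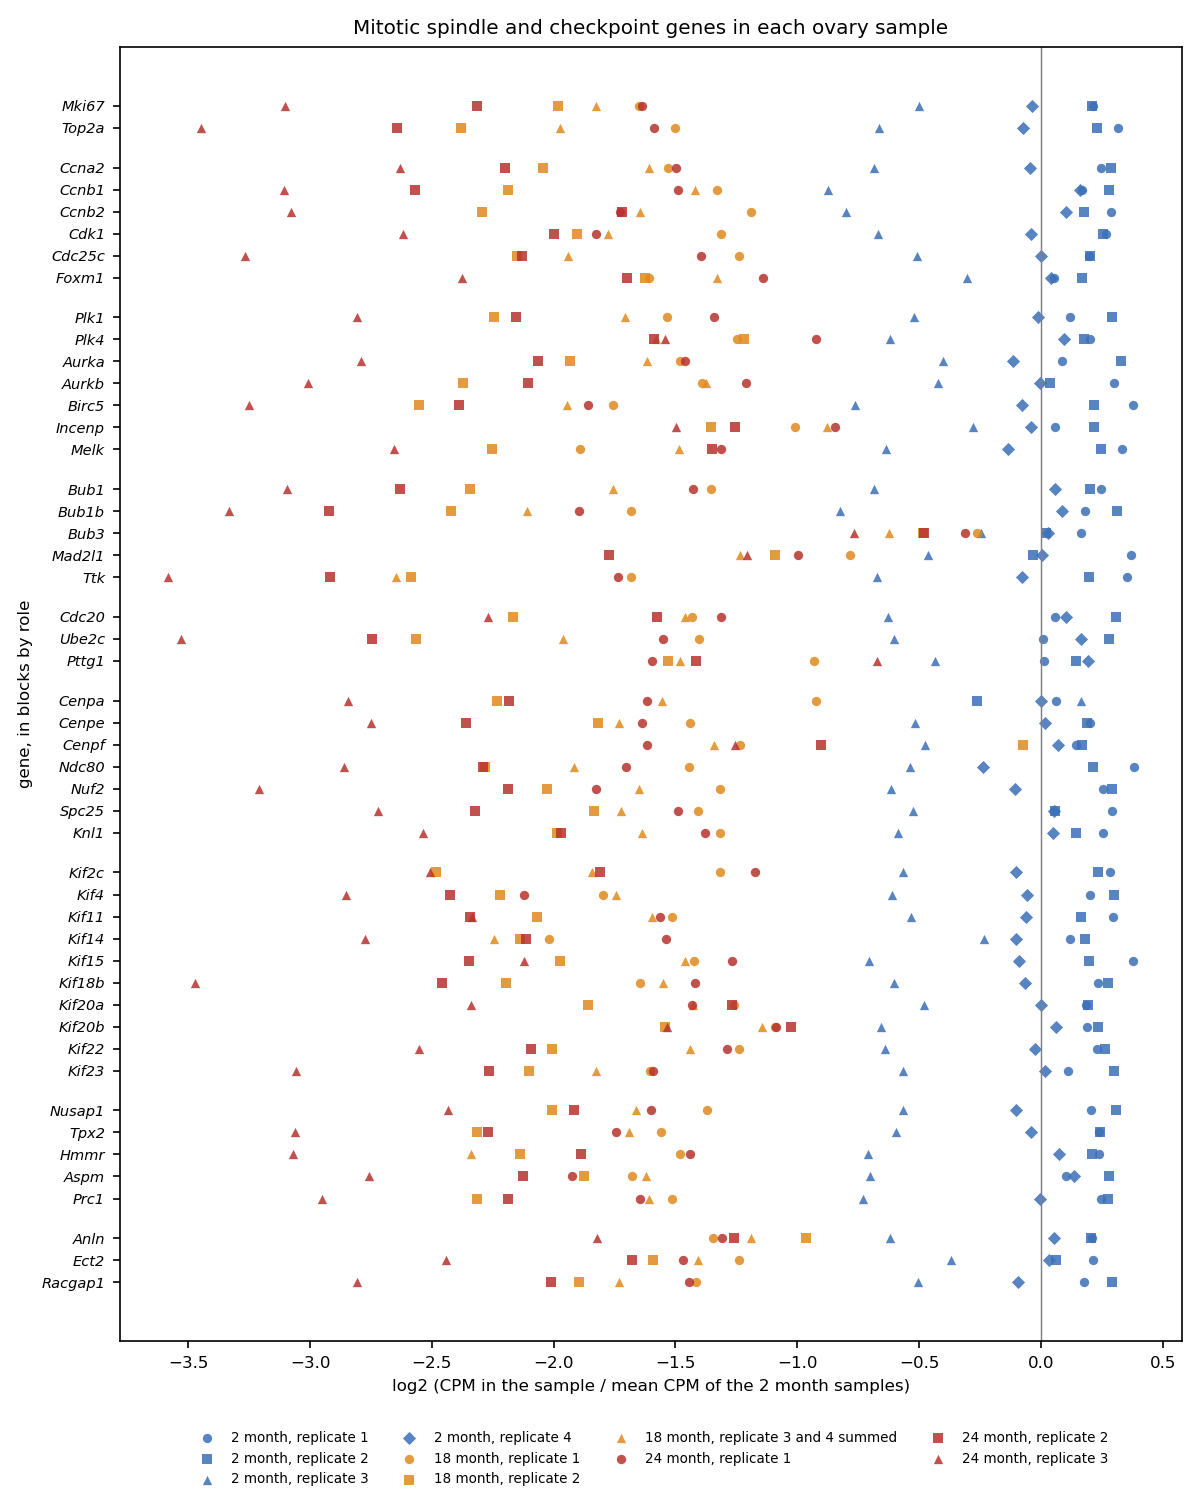
Each of the 48 members (rows, in blocks by role) in each of the 10 samples (points, colour for age and shape for replicate), as the log2 ratio of its CPM to the mean CPM of the 2 month samples. The 2 month points lie to the right of the older ones in all rows except Cenpf, where 18 month replicate 2 lies among them; 2 month replicate 3 was lowest of its age for 47 members and 24 month replicate 3 for 42.

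Both proliferation markers fell. Mki67 (ENSMUSG00000031004, chromosome 7, 135689784 to 135716361 in the files' mm10 coordinates), which encodes the Ki-67 protein that coats mitotic chromosomes, measured 203, 202, 123 and 170.0 CPM at 2 months, 55.6, 44.2 and 49.2 CPM at 18 months and 56.02, 35.1 and 20.3 CPM at 24 months. Every 2 month sample lay above every older sample. The mean of 174 ± 37.3 CPM (SD, n = 4) compares with 49.7 ± 5.73 CPM (SD, n = 3) at 18 months, and the log2 fold change was -1.81 ± 0.317 (SE, adjusted p = 0.0143 by edgeR). Top2a (ENSMUSG00000020914, chromosome 11, 98992943 to 99024189), the topoisomerase that untangles sister chromosomes, had 223, 210.1, 113 and 170.0 CPM in the 2 month samples, 63.1, 34.4 and 45.5 CPM in the 18 month samples and 59.5, 28.6 and 16.4 CPM in the 24 month samples. The lowest 2 month sample, replicate 3, still exceeded the highest older sample. The log2 fold change of Top2a at 18 months was -1.91 ± 0.432 (SE, adjusted p = 0.0258 by edgeR). Per exon length Top2a was also the highest member at 2 months, at 19.8 FPKM (CPM per kilobase of exon), followed by Ccnb2 at 18.3, Mki67 at 17.3 and Cdc20 at 16 FPKM, while Cdc25c was lowest at 1.14 FPKM.

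All 6 genes of the cyclin and Cdk1 group fell, with log2 fold changes between -1.72 and -1.52. Ccna2, the cyclin of S phase and mitotic entry, stood at 55.6, 57.2, 29.1 and 45.4 CPM at 2 months, 16.2, 11.4 and 15.4 CPM at 18 months and 16.6, 10.2 and 7.56 CPM at 24 months. No 18 or 24 month sample reached the lowest 2 month sample, and the log2 fold change at 18 months was -1.71 ± 0.314 (SE, adjusted p = 0.0154 by edgeR). Cdk1, the kinase that drives mitotic entry, gave 54.9, 54.5, 28.7 and 44.4 CPM in the 2 month samples, 18.4, 12.2 and 13.3 CPM in the 18 month samples and 12.9, 11.4 and 7.44 CPM in the 24 month samples. Its groups did not overlap either, with a log2 fold change of -1.64 ± 0.278 (SE, adjusted p = 0.0134 by edgeR). Foxm1, a transcription factor that activates many genes of this group, showed 31.6, 34.2, 24.7 and 31.3 CPM at 2 months, 9.99, 9.87 and 12.1 CPM at 18 months and 13.8, 9.39 and 5.87 CPM at 24 months. Its 2 month values were closer together than those of Cdk1 and stood apart from all others, with a log2 fold change of -1.52 ± 0.26 (SE, adjusted p = 0.0136 by edgeR). The mitotic cyclins Ccnb1 and Ccnb2 had log2 fold changes of -1.60 and -1.64, and the Cdk1-activating phosphatase Cdc25c of -1.72.

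The mitotic kinases and the chromosomal passenger complex, which corrects faulty attachments of chromosomes, fell in 7 of 7 members. Aurka, the kinase of spindle poles, measured 22.3, 26.3, 15.9 and 19.4 CPM in the 2 month samples, 7.51, 5.49 and 6.83 CPM in the 18 month samples and 7.61, 5.01 and 3.02 CPM in the 24 month samples. Replicate 3 was the lowest 2 month sample and still above all older ones; the log2 fold change at 18 months was -1.67 ± 0.307 (SE, adjusted p = 0.0154 by edgeR). Incenp, the scaffold of the passenger complex, gave 53.6, 59.8, 42.4 and 50.01 CPM at 2 months, 25.5, 20.1 and 28.03 CPM at 18 months and 28.7, 21.6 and 18.2 CPM at 24 months. Its decrease was smaller, to a log2 fold change of -1.07 ± 0.187 (SE, adjusted p = 0.0139 by edgeR), and its groups were well apart. The other passenger members Aurkb and Birc5 (survivin) had log2 fold changes of -1.65 and -2.05. Plk1, a kinase of spindle assembly, had -1.80, Plk4, the kinase of centriole duplication, -1.34, and Melk, a kinase of dividing cells, -1.85 on the same scale.

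Of the 5 spindle checkpoint members, 4 were called lower at 18 months, and Bub3 had a lower mean but did not pass the test. Bub1b, which encodes the checkpoint protein BubR1, had 57.3, 62.8, 28.5 and 53.8 CPM at 2 months, 15.8, 9.46 and 11.7 CPM at 18 months and 13.6, 6.69 and 5.03 CPM at 24 months. The 2 month values ranged widely, and even the lowest exceeded the older samples. The log2 fold change of Bub1b was -2.04 ± 0.39 (SE, adjusted p = 0.0168 by edgeR). Ttk, the checkpoint kinase also called Mps1, measured 22.2, 20.01, 10.9 and 16.5 CPM in the 2 month samples, 5.42, 2.90 and 2.78 CPM in the 18 month samples and 5.22, 2.30 and 1.45 CPM in the 24 month samples. This was the largest decrease among the members, with a log2 fold change of -2.23 ± 0.469 (SE, adjusted p = 0.0217 by edgeR). Bub3 (ENSMUSG00000066979, chromosome 7, 131560222 to 131571895), the adaptor that brings Bub1 and BubR1 to kinetochores, gave 93.4, 84.5, 70.3 and 85.1 CPM at 2 months, 69.6, 59.6 and 54.1 CPM at 18 months and 67.2, 59.8 and 49.02 CPM at 24 months. All 18 month samples lay below all 2 month samples, although 18 month replicate 1 came close to 2 month replicate 3, and the log2 fold change was -0.45 ± 0.141 (SE, adjusted p = 0.0673 by edgeR). Per exon length Bub3 was the highest member at both older ages, at 8.72 FPKM at 18 months and 8.37 FPKM at 24 months, against a member median of 1.85 and 1.52 FPKM. The span of Bub3 overlaps that of Fgfr2 on the other strand by 11674 bases. Overlap of their exons was not checked and the strand setting of the counting is not given. Whether Fgfr2 reads entered the Bub3 counts is therefore not known. The remaining checkpoint members were Bub1 at -1.76 and Mad2l1, whose protein Mad2 inhibits the anaphase promoting complex, at -1.02.

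The 3 partners and substrates of the anaphase promoting complex fell. Cdc20, its activator and the target of the checkpoint, had 31.1, 36.98, 19.3 and 32.1 CPM in the 2 month samples, 11.1, 6.65 and 10.9 CPM in the 18 month samples and 12.02, 10.02 and 6.19 CPM in the 24 month samples. The 18 and 24 month values overlapped widely, and the 2 month values lay above both, with a log2 fold change at 18 months of -1.65 ± 0.302 (SE, adjusted p = 0.0154 by edgeR). Ube2c, the enzyme that passes ubiquitin to the complex, measured 32.5, 39.2, 21.2 and 36.2 CPM at 2 months, 12.2, 5.45 and 8.28 CPM at 18 months and 11.01, 4.81 and 2.79 CPM at 24 months. Its groups were apart, with a log2 fold change of -1.90 ± 0.464 (SE, adjusted p = 0.032 by edgeR). Pttg1 (securin), which keeps separase inactive until anaphase, gave 18.5, 20.2, 13.5 and 20.9 CPM in the 2 month samples, 9.60, 6.34 and 6.56 CPM in the 18 month samples and 6.05, 6.86 and 11.5 CPM in the 24 month samples. Its highest older value, in 24 month replicate 3, came close to the lowest 2 month value, and the log2 fold change at 18 months was -1.28 ± 0.272 (SE, adjusted p = 0.0218 by edgeR).

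At the centromere and outer kinetochore 6 of 7 members were called lower, and all 7 had a log2 fold change below 0. Cenpe, a kinetochore motor that carries chromosomes to the spindle equator, stood at 45.02, 44.6, 27.3 and 39.6 CPM at 2 months, 14.4, 11.1 and 11.8 CPM at 18 months and 12.6, 7.63 and 5.82 CPM at 24 months. The log2 fold change of Cenpe was -1.65 ± 0.276 (SE, adjusted p = 0.0134 by edgeR), with no overlap. Spc25, a subunit of the Ndc80 complex that grips microtubules, measured 19.00, 16.2, 10.8 and 16.1 CPM in the 2 month samples, 5.85, 4.35 and 4.71 CPM in the 18 month samples and 5.52, 3.10 and 2.36 CPM in the 24 month samples. Its log2 fold change was -1.64 ± 0.314 (SE, adjusted p = 0.0165 by edgeR), and its partners Ndc80 and Nuf2 had log2 fold changes of -1.84 and -1.64. Knl1, the platform for checkpoint proteins, had -1.62, and Cenpa, the histone variant that marks the centromere, -1.47. Cenpa was the only member for which 2 month replicate 3 was not the lowest of its age, at 36.9, 29.4, 39.5 and 35.3 CPM at 2 months, 18.6, 7.50 and 11.99 CPM at 18 months and 11.5, 7.77 and 4.91 CPM at 24 months.

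Cenpf (ENSMUSG00000026605, chromosome 1, 189640606 to 189688086), a large protein of the nuclear matrix and kinetochore, was the other member that edgeR did not call at 18 months. It gave 69.3, 70.5, 45.1 and 65.9 CPM in the 2 month samples, 26.6, 59.6 and 24.7 CPM in the 18 month samples and 20.5, 33.5 and 26.3 CPM in the 24 month samples. The 59.6 CPM of 18 month replicate 2 lay within the 2 month range, while the other 18 month samples were far below it. The log2 fold change was -0.76 ± 0.321 (SE, adjusted p = 0.148 by edgeR), and without 18 month replicate 2 it was -1.29, with an edgeR adjusted p of 0.032. Replicate 2 was the lowest 18 month sample for 40 of the 48 members, so Cenpf departed from them there. That sample also had the highest summed level at 18 months of the surface epithelium markers (676 CPM against 262 and 386 in the other 18 month samples) and of the oviduct epithelium markers (449 CPM against 138 and 283), whose part in the Cenpf value was not tested.

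Every one of the 10 kinesins fell, with log2 fold changes of -2.13 to -1.25. Kif4, a motor of chromosome arms and the central spindle encoded on the X chromosome, had 30.4, 32.6, 17.3 and 25.4 CPM at 2 months, 7.62, 5.68 and 7.89 CPM at 18 months and 6.08, 4.92 and 3.66 CPM at 24 months. Its log2 fold change of -1.91 ± 0.263 (SE, adjusted p = 0.00948 by edgeR) came with well separated groups. Kif14 (ENSMUSG00000041498, chromosome 1, 136466343 to 136531511), a motor of cytokinesis, measured 12.96, 13.5, 10.2 and 11.1 CPM in the 2 month samples, 2.94, 2.71 and 2.52 CPM in the 18 month samples and 4.11, 2.76 and 1.74 CPM in the 24 month samples. The 18 month samples lay close to each other, and Kif14 had the smallest adjusted p of the members, with a log2 fold change of -2.13 ± 0.288 (SE, adjusted p = 0.00901 by edgeR). Kif23, a motor of the centralspindlin complex at the midzone, gave 44.96, 51.3, 28.1 and 42.2 CPM at 2 months, 13.7, 9.71 and 11.7 CPM at 18 months and 13.8, 8.65 and 5.001 CPM at 24 months and a log2 fold change of -1.83 ± 0.334 (SE, adjusted p = 0.0154 by edgeR). Among the others, Kif2c, which takes microtubules apart at centromeres, had -1.80, Kif18b, which shortens astral microtubules, -1.77, and Kif11, which pushes spindle poles apart, -1.71. Kif15, which backs up Kif11, had -1.60, the chromosome arm motor Kif22 -1.53, and the cytokinesis motors Kif20a and Kif20b -1.50 and -1.25.

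The 5 spindle-associated proteins fell with a median log2 fold change of -1.77. Nusap1, which bundles microtubules near chromosomes, measured 37.3, 40.1, 21.8 and 30.1 CPM in the 2 month samples, 12.5, 8.04 and 10.2 CPM in the 18 month samples and 10.7, 8.56 and 5.99 CPM in the 24 month samples, with a log2 fold change of -1.66 ± 0.272 (SE, adjusted p = 0.0128 by edgeR). Tpx2, which activates Aurora A on the spindle, had 66.1, 66.2, 37.04 and 54.3 CPM at 2 months, 18.96, 11.2 and 17.3 CPM at 18 months and 16.7, 11.6 and 6.69 CPM at 24 months. Its groups did not overlap, and its log2 fold change was -1.82 ± 0.336 (SE, adjusted p = 0.0155 by edgeR). Aspm, a spindle pole protein known from human microcephaly, gave 48.4, 54.7, 27.7 and 49.6 CPM in the 2 month samples, 14.1, 12.3 and 14.6 CPM in the 18 month samples and 11.9, 10.3 and 6.66 CPM in the 24 month samples. Its 18 month values were close together and far below 2 months, at a log2 fold change of -1.72 ± 0.262 (SE, adjusted p = 0.0117 by edgeR). Prc1, which cross-links the central spindle, and Hmmr, which organises the spindle poles, had -1.77 and -1.93.

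The 3 cleavage furrow members fell, with a median log2 fold change of -1.41. Ect2, which activates RhoA at the furrow, measured 30.5, 27.5, 20.4 and 26.9 CPM at 2 months, 11.2, 8.73 and 9.94 CPM at 18 months and 9.52, 8.22 and 4.86 CPM at 24 months, with a log2 fold change of -1.41 ± 0.237 (SE, adjusted p = 0.0134 by edgeR). Racgap1, the partner of Kif23 in centralspindlin, had 48.9, 52.9, 30.5 and 40.5 CPM in the 2 month samples, 16.2, 11.6 and 12.99 CPM in the 18 month samples and 15.9, 10.7 and 6.16 CPM in the 24 month samples. Its log2 fold change was -1.67 ± 0.314 (SE, adjusted p = 0.0165 by edgeR), again without overlap. Anln, the furrow scaffold anillin, changed less, by a log2 fold change of -1.16 ± 0.225 (SE, adjusted p = 0.0173 by edgeR). Its level was 45.1, 44.97, 25.3 and 40.4 CPM at 2 months, 15.3, 19.99 and 17.1 CPM at 18 months and 15.7, 16.3 and 11.02 CPM at 24 months, and like Cenpf it was highest among the 18 month samples in replicate 2.

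**Figure D3:**
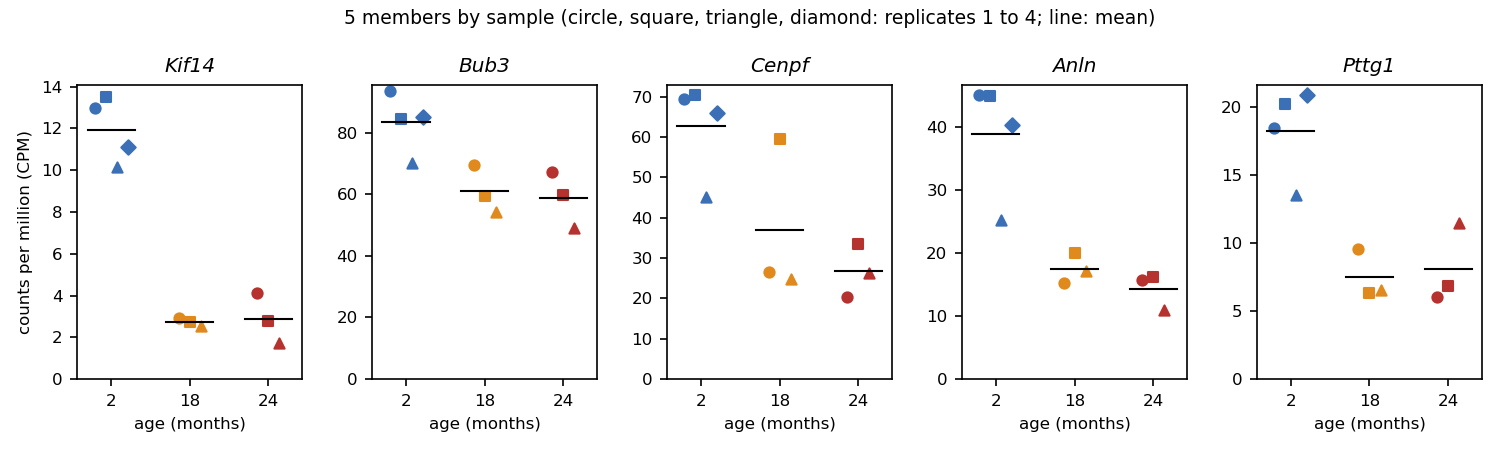
CPM (vertical axis, from 0) against age in months for Kif14 and 4 members that departed from the common pattern; each point is a sample, its shape the replicate, and lines are means. Bub3 changed least, Cenpf has 1 high 18 month sample at 59.6 CPM, Anln is highest at 18 months in that same sample, and Pttg1 is highest at 24 months in replicate 3.

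The number of calls at 18 months rested on single samples. Without 2 month replicate 1, 2 or 4, the members called were 11, 22 and 26, and 1.89%, 3.05% and 3.41% of all genes were called. Without 18 month replicate 2 they were 15 (3.47% of all genes), and without the summed 18 month sample 6 (1.79%). The median log2 fold change of the members stayed between -1.83 and -1.54 in all of these, and no member changed direction. Aspm, Foxm1, Incenp, Kif11, Kif14 and Kif4 were called whichever single sample was left out.

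Within each age the members moved together from sample to sample. Replicate 3 at 2 months was lowest of its age for 47 of 48 members, against 32.4% of all genes. At 18 months replicate 1 was highest for 38 members and replicate 2 lowest for 40 (33.8% of all genes). At 24 months replicate 1 was highest for 42 and replicate 3 lowest for 42 (35.1% of all genes), the exceptions being Plk4, Mad2l1, Pttg1, Cenpf, Kif11 and Kif15. The 2 month replicate 3 also had the lowest summed level of its age for oocyte markers (282 CPM against 481 to 661) and granulosa cell markers (3648 CPM against 4720 to 4846). Among the granulosa cell markers, Foxl2 and Inhba were not lowest there. Its sum was the highest for corpus luteum markers (58470 CPM against 25125 to 43874) and theca cell markers (33823 CPM against 16903 to 22266). It was also highest for endothelium, macrophage, T cell and B and plasma cell markers. Their part in the members' levels was not tested.

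The second comparison set post-reproductive against young ovaries. All 48 members were lower at 24 than at 2 months by the edgeR test, against 15.8% of all genes called lower and 35.0% called in either direction. The median log2 fold change was -2.04, with a range of -2.59 for Bub1b to -0.51 for Bub3. No 24 month sample of any member reached the lowest 2 month sample, which held for 20.4% of all genes.

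The named members show the scale. Mki67 had a mean of 37.1 ± 17.9 CPM (SD, n = 3), with a log2 fold change of -2.23 ± 0.323 (SE, adjusted p = 0.00255 by edgeR). Kif4, with 4.89 ± 1.21 CPM (SD, n = 3), had the smallest adjusted p of the members, at a log2 fold change of -2.44 ± 0.269 (SE, adjusted p = 0.00162 by edgeR). Both members that edgeR did not call at 18 months were called here: Bub3 changed by -0.51 ± 0.141 (SE, adjusted p = 0.022 by edgeR) and Cenpf by -1.23 ± 0.326 (SE, adjusted p = 0.0188 by edgeR). Whichever sample was left out, 46 to 48 members were called, beside 20.6% to 35.4% of all genes. Bub3 was not called without 2 month replicate 1, 2 or 4 or without 24 month replicate 2 or 3, and Cenpf was not called without 24 month replicate 1 or 3. Bub3 was also not called with library totals alone and Pttg1 with the replicate block, and the other 45 members were called in every alternative. Without 24 month replicate 3 the median was -1.73, and without 24 month replicate 1 it was -2.38.

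The third comparison asked whether the members differed between the 2 older ages. By edgeR 0 of 48 were called, against 0.00492% of all genes, and 0 had an unadjusted p under 0.05, against 10.4% of all genes. DESeq2 called 0 members and 0.92% of all genes, with 0 members at an unadjusted p under 0.05. By limma-voom 0 members and 0.00492% of all genes were called, with only Cenpe of the members under 0.05 unadjusted. The median log2 fold change was -0.34, with 42 members below 0 and 6 above (46.4% of all genes were below 0), and a range of -0.66 to 0.20. Without 24 month replicate 3 the median was -0.09, and without 24 month replicate 1 it was -0.67, so single samples moved it by more than 1.5 times.

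The 3 members with the smallest p here were Kif4, Aspm and Cenpa. Kif4 changed by -0.53 ± 0.27 (SE, adjusted p = 0.525 by edgeR) and Cenpa by -0.66 ± 0.355 (SE, adjusted p = 0.542 by edgeR), each with overlapping samples. Aspm was the only member with every 24 month sample below every 18 month sample, at 11.9 CPM or less against 12.3 CPM or more, which held for 5.36% of all genes. Its log2 fold change was -0.51 ± 0.27 (SE, adjusted p = 0.539 by edgeR). At the other end were the 6 members above 0, Melk at 0.20, Pttg1 at 0.12, Kif2c at 0.07, Kif14 at 0.07, Kif20b at 0.05 and Plk4 at 0.02, none past the test. With the replicate number as a block, which pairs the samples of these 2 ages, 0 members were called as well.

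**Figure D4:**
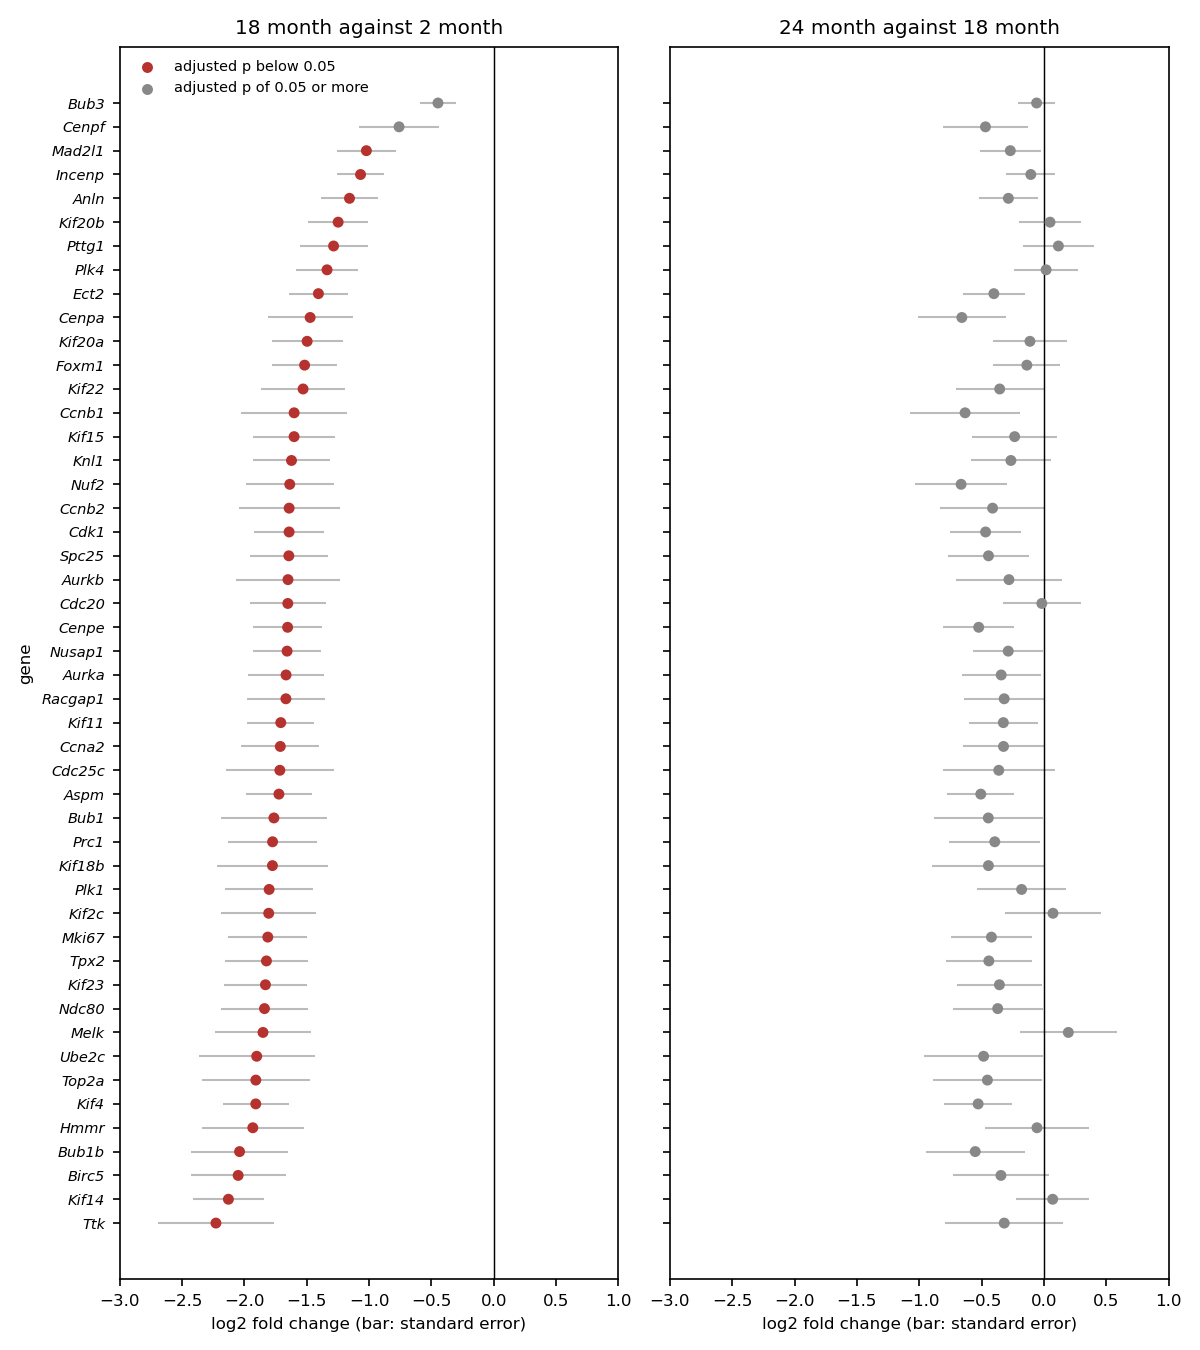
Log2 fold changes of the 48 members with their SE (bars), at 18 against 2 months (left, sorted) and at 24 against 18 months (right, same order); red points passed the edgeR test at an adjusted p of 0.05. Bub3 and Cenpf did not pass on the left and 0 members passed on the right; both comparisons share the 18 month samples.

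Other genes of the same machinery, 106 in 7 lists, were tested in the same way. At 18 against 2 months 45 were lower and 0 higher, with a median log2 fold change of -0.54. At 24 months 70 were lower and 1, Tfdp2, was higher at a log2 fold change of 0.43. Of all genes, 5.51% were called lower and 6.04% higher at 18 months, and 15.8% lower and 19.2% higher at 24 months. Between 24 and 18 months 0 of the 106 were called. By direction alone, 98 of the 106 had a log2 fold change below 0 at 18 months. For these lists, genes that fell are those called lower by the edgeR test. The lists differed in how many genes were called, and each count at 18 months stands beside the 5.51% of all genes called lower.

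The anaphase promoting complex list holds 16 genes, of which Ube2s and Fzr1 are not subunits. Of these 16 genes, 5 were lower at 24 months, against 15.8% of all genes. At 18 months 1 was lower, a share near the 5.51% of all genes called lower. It was Ube2s, the enzyme that extends ubiquitin chains on the complex, at a log2 fold change of -0.81 ± 0.138 (SE, adjusted p = 0.0134 by edgeR). The median of that list was -0.16, and the subunit Anapc7 had an edgeR adjusted p of 0.0564. Condensin, the ring that compacts chromosomes, fell in 7 of 8 genes. Ncapd2 changed by -1.18 ± 0.168 (SE, adjusted p = 0.0105 by edgeR) and Smc2, the core subunit of both condensins, by -1.03 ± 0.201 (SE, adjusted p = 0.0176 by edgeR) on the log2 scale. The condensin I subunits Ncaph and Ncapg had log2 fold changes of -1.65 and -1.99, and the condensin II subunits Ncaph2, Ncapg2 and Ncapd3 -0.37, -0.66 and -0.49, where Ncaph2 was not called. The difference between the complexes was not tested, and these 5 subunits were chosen after their values were seen.

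Among 28 other centromere and kinetochore genes 15 fell, led by Cenpn, which reads the centromeric nucleosome, at -1.38 (adjusted p = 0.0127, edgeR) and Spc24, the partner of Spc25, at -1.76 (adjusted p = 0.0164, edgeR). Of 14 other checkpoint, passenger and separase genes 7 fell. They included Cdca8, the passenger protein borealin, at -1.66 (adjusted p = 0.0181, edgeR) and the histone kinase Haspin at -1.37 (adjusted p = 0.0203, edgeR). Of 19 other spindle and cytokinesis genes 12 fell, among them Ckap2l at -1.73 (adjusted p = 0.0117, edgeR) and Tacc3, which stabilises spindle fibres, at -1.76 (adjusted p = 0.0132, edgeR). Of 10 centriole duplication genes 2 passed the test, the assembly factor Stil at -1.76 (adjusted p = 0.0183, edgeR) and the gamma tubulin gene Tubg1 at -0.55 (adjusted p = 0.0492, edgeR). Tubg1 lost its call in 12 of 19 alternatives, with adjusted p between 0.0111 and 0.145 over all 19, among them every one that left out a 2 month or an 18 month sample. Of 11 DREAM and MuvB genes 1 fell, a share near the 5.51% of all genes called lower. It was Mybl2, which encodes the activator B-Myb, at -1.76 ± 0.35 (SE, adjusted p = 0.0183 by edgeR). Tfdp1, a partner of E2F proteins, was not called at -0.49 (adjusted p = 0.0597, edgeR).

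**Figure D5:**
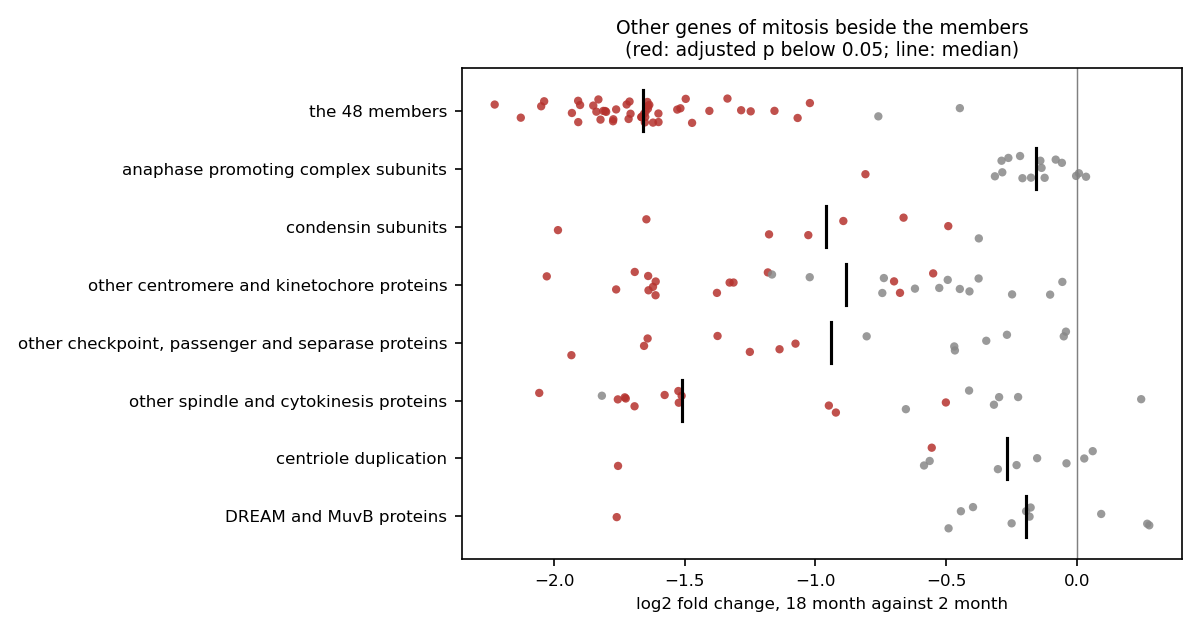
Log2 fold changes at 18 against 2 months of the 48 members and of the 106 other genes in 7 lists; each point is a gene, red where it passed the edgeR test at an adjusted p of 0.05, and the line is the list's median. The members' median is -1.66 and that of condensin -0.96. That of the list labelled anaphase promoting complex subunits, which also holds Ube2s and Fzr1, is -0.16.

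Markers of several ovarian cell types moved with age beside these genes. The summed oocyte markers ranged from 282 to 661 CPM at 2 months, from 37.2 to 78.0 at 18 months and from 7.20 to 49.7 at 24 months, with 12 of 13 lower at 18 months and 13 of 13 at 24 months. Summed granulosa cell markers ranged from 3648 to 4846, from 2127 to 3651 and from 1666 to 4552 CPM, with 3 and 4 of 12 lower. Of all genes, 5.51% were called lower at 18 months and 15.8% at 24 months. At 24 months the granulosa sums were 4552, 1666 and 3062 CPM in replicates 1 to 3. Replicate 1 was highest both here and for 42 of the 48 members. The lowest granulosa sum was in replicate 2, and replicate 3 was lowest for 42 members. The sum is weighted to its abundant genes, such as Inha at 2143, 1096 and 1251 CPM and Inhba at 925, 37.4 and 703 CPM. Foxl2 stood at 161, 169 and 205 CPM in the same samples. Of the macrophage markers 8 of 9 were higher at 18 months, and of the T cell markers 5 of 8, against 6.04% of all genes. So were 6 of 9 surface epithelium, 2 of 7 B and plasma cell and 2 of 8 oviduct epithelium markers. The summed oviduct epithelium markers were highest in 24 month replicate 3, the sample that was lowest for 42 members, at 1199 CPM against 141 and 334 in the other 24 month samples. That sample was also highest of its age for B and plasma cell markers (1240 CPM against 75.1 and 105), surface epithelium markers (741 against 241 and 402) and T cell markers. It was lowest of its age for theca cell, corpus luteum, macrophage and endothelium markers. Every marker of these lists had counts in at least 1 sample of each age, and the part of the markers in the members' levels was not tested.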

How the data were processed

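Per the labels' protocols, total ovary RNA was purified with Trizol and columns, and stranded mRNA libraries were made from it. The authors deposited 1 table of raw counts per gene, made in mm10 coordinates. Tools named in the submitters' processing notes are FastQC, cutadapt, STAR and HTSeq. Their versions, the annotation and how strand was counted are not stated in the labels or headers (not given in the sources used here). By gene span, 9 members overlap a coding gene on the other strand (Bub3, Ccna2, Cdc20, Cdc25c, Kif20a, Kif4, Nusap1, Prc1 and Ube2c). Overlap of exons was not checked, and the counts of these members are uncertain to that extent.

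The members and gene lists were chosen with earlier results of these data known. Libraries were grouped by the ages in their titles, and 18 month replicates 3 and 4 were summed. Genes were filtered by filterByExpr, scaled by TMM and tested two-sided in 1 model of 3 ages with edgeR 4.0.16 in R 4.3.3 (glmQLFit, robust), with Benjamini-Hochberg adjustment over 20331 genes at 0.05, 7 residual degrees of freedom and a common biological coefficient of variation of 0.32. CPM use TMM factors, and FPKM divide them by the summed exon length. Named members follow a rule: per role, the 2 with the smallest adjusted p at 18 against 2 months, the most abundant at 2 months and any not called; the 3 smallest p between the older ages; and per other list the 2 smallest adjusted p. Outside the rule, per-sample values are also given for Anln and Cenpa, chosen after their values were seen, and for Ccnb1 and Plk4, each with 1 sample far from the others. The remaining members are given by their fold changes.

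To check whether replicate numbers pair samples, deviations from the age means were correlated. The correlation of same-numbered samples was 0.389, 0.280 and 0.147 between 18 and 24 months, all above 0.1. A differently numbered pair, 18 month replicate 2 and 24 month replicate 3, had 0.135. Against 2 months the same-numbered samples had -0.113 to 0.0628. Differently numbered samples reached 0.236 there, for 2 month replicate 2 and the summed 18 month sample. The fold changes and p-values given for 24 against 18 months come from the unpaired fit. A fit with the replicate number as a block was an alternative, though no label gives what a number stands for. Alternatives were other size factors, library totals, other count filters, a fit of just the compared ages, a replicate block, limma-voom (limma 3.58.1) with sample weights, DESeq2 1.42.0, 11 separate libraries and leaving out each sample. DESeq2 gave no adjusted p for 51 genes in each comparison with 2 months and 840 between the older ages. Promoter windows came from RefSeq, and the last 20 bases of 41 of the 44 member windows were found in the transcripts of their gene.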

Additional observations from a re-analysis of the deposited data

Results flagged for a closer look

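Ccnb1 and Plk4 had 1 sample far from the others at 2 months, 2 of 48 members, while 6.48% of 20294 genes tested the same way had such a sample in that group. Chance flags about 1 in 20 groups. For Ccnb1, the gap between the lowest sample, replicate 3, and the next was 0.858 of the whole range of the 4 samples, above Dixon's critical value, and its levels were 24.5, 26.4, 11.9 and 24.4 CPM at 2 months, 8.68, 4.79 and 8.15 CPM at 18 months and 7.76, 3.67 and 2.53 CPM at 24 months. For Plk4 the gap was 0.83, again for replicate 3, with 24.6, 24.1, 13.9 and 22.8 CPM in the 2 month samples, 9, 9.18 and 7.16 CPM in the 18 month samples and 11.3, 7.11 and 7.33 CPM in the 24 month samples. Replicate 3 was also the lowest 2 month sample for 47 of 48 members.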

How the results depend on the processing

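No member changed direction against 2 months under any alternative. Members called ranged from 40 to 48 at 18 months and from 47 to 48 at 24 months over the alternatives that kept every sample. Those alternatives called 4.36% to 19.9% of all genes at 18 months and 15.6% to 48.2% at 24 months. With the replicate block the members called were 40, 47 and 0 for 18 against 2, 24 against 2 and 24 against 18 months. Of all genes, 5.09%, 25.2% and 0% were called with it. The block lowered the calls in the other pathway lists at 18 months from 45 to 27. Leaving out 1 sample at a time gave 6 to 47 members at 18 months, 46 to 48 at 24 months and 0 between the older ages. The other lists had 5 to 55, 45 to 73 and 0 genes called. Of all genes, 1.79% to 13.2% were called at 18 months and 20.6% to 35.4% at 24 months. The median log2 fold change of members ranged from -1.83 to -1.54, from -2.38 to -1.73 and from -0.67 to -0.09. The summed 18 month sample is the shallowest, and members of low counts, such as Kif14, carry more counting error there.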
